A study of Mus musculus with 11 samples.

Results

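Cells of the mouse adrenal medulla that carried the Nestin-GFP reporter were compared with reporter-negative cells sorted from the same dissected tissue. The comparison rests on 5 of the 11 libraries of the series: 3 libraries of GFP-positive cells and 2 of GFP-negative cells, chosen by their labels and not by any measured value. The mice were 6 male Nestin-GFP animals, untreated apart from perfusion with saline, in which GFP is driven by regulatory sequences of the nestin gene, so that GFP reports the activity of the transgene and not the nestin transcript itself. Medullae of 2 mice were pooled in each of 3 pools, digested with collagenase and sorted, and 180 to 300 cells per tube were lysed and amplified by 17 cycles of PCR without molecular identifiers. Mice aged about 3.5 months gave the GFP-negative pair and GFP-positive library 1, and mice aged about 2.5 months gave GFP-positive libraries 2 and 3. No GFP-negative library of the younger mice was analysed here, so age and gate are partly confounded. Libraries came from pools of mice and the labels do not tie each library to its pool. If each pool held mice of 1 age, 3 pools leave 1 of the ages with a single pool. The GFP-negative pair, or GFP-positive libraries 2 and 3, would then come from the same mice. The p-values measure the spread between libraries, over all 11 in the fit, and not between mice.

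Nestin is an intermediate filament protein of neural and other progenitor cells, and a nestin reporter is widely used to mark such cells. The adrenal medulla holds chromaffin cells, which make and store catecholamines, and glial cells of the Schwann lineage, called sustentacular cells, which wrap them. Chromaffin cells descend from Schwann cell precursors of the neural crest, which rely on the transcription factor Sox10 and on neuregulin signals received by Erbb3. Endothelial cells, pericytes, fibroblasts and resident macrophages complete the tissue, and steroid-producing cells of the surrounding cortex can be carried along in a dissection.

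In the raw counts, 4461 of 20893 genes tested (21.4%) were called at an adjusted p under 0.05 by edgeR's quasi-likelihood test, 2135 of them higher (10.2%) and 2326 lower (11.1%) in GFP-positive cells. The called genes included 521 that were at least 16-fold higher and 683 that were at least 16-fold lower on the fitted scale, against a median log2 change of 0.09 over all genes tested. The 3 GFP-positive libraries did not overlap with the 2 GFP-negative libraries for 48.1% of genes tested, so a lack of overlap is common in this comparison and is given below only as a description. The calls depended on the GFP-negative pair: without GFP-negative library 2 the count of higher genes was 1243, and without library 1 it was 1740. With age as a term 1676 genes were higher and 1880 lower, and among the libraries of older mice alone, which leaves 1 GFP-positive medullary library, 1031 were higher and 1303 lower. Values below are counts scaled to library size after TMM (CPM), given in the order of library numbers, and changes are log2 of GFP-positive over GFP-negative with an approximate standard error (SE). Each named gene was also tested without each library in turn, with age or the replicate number (the replicate block) as a term, in the medullary libraries alone, with older mice alone in the medulla, with other scalings and filters, and by DESeq2 and limma-voom. Settings that ended or gave a call of the medullary gate effect are named beside the gene. For differences from the cortex, only the number of named genes that passed is given, for some settings.

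Total counts were 18500690 to 28648901 in GFP-positive and 24465910 to 29204212 in GFP-negative libraries, so that 3 counts corresponded to 0.104 to 0.157 CPM. Correlations of log2 CPM were 0.964 to 0.970 within the GFP-positive group, 0.965 within the GFP-negative pair and 0.845 to 0.867 between gates. The mitochondrial share of counts was 12.6, 9.61 and 15.2% in GFP-positive libraries and 4.08 and 5.14% in GFP-negative libraries. In bulk libraries like these, fewer cells of a type and less RNA per cell cannot be told apart.

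The labels were checked first against Nes itself and against markers of the cells each gate could hold. Nes (nestin, mm10 chromosome 3, 87971078 to 87980451) measured 78.7, 178 and 69.2 CPM in the GFP-positive libraries and 16.1 and 26.1 CPM in the GFP-negative libraries. Every GFP-positive library was above both GFP-negative libraries, but the negative gate held nestin transcript too (log2 2.37, SE 0.44, edgeR adjusted p = 0.00406). Vim, encoding the intermediate filament vimentin, was higher at 507, 1278 and 438 against 55.6 and 123 CPM (log2 3.05, SE 0.54, edgeR adjusted p = 0.00306). Of 12 reporter and progenitor genes, 4 were higher and 2, Cd44 and Myc, were lower, at 67.6, 68.5 and 54.8 against 119.7 and 114 CPM (log2 -0.88, SE 0.17, edgeR adjusted p = 0.00552) and 35.7, 60.4 and 40.9 against 121 and 88.6 CPM (log2 -1.19, SE 0.29, edgeR adjusted p = 0.0149). Cd44 lost its call with older mice alone (adjusted p = 0.0817). Myc was no longer called without GFP-negative library 1 (edgeR adjusted p = 0.104).

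Neither gate was free of marker transcripts of several cell types, as summed levels showed. Which cells carried these transcripts was not tested. The 26 macrophage genes summed to 2946, 2647 and 1153 CPM in GFP-positive and 54887 and 52017 CPM in GFP-negative libraries. Transcripts of steroidogenic genes, typical of the cortex, were abundant in both gates of the libraries labelled medulla. Over 25 genes they summed to 48108, 26452 and 36472 CPM in GFP-positive and 19817 and 10907 CPM in GFP-negative libraries. The 14 catecholamine genes summed to 3187, 3133 and 2552 CPM in GFP-positive and 2630 and 1681 CPM in GFP-negative libraries, and the ranges of the 2 gates overlapped. Endothelial markers summed to 606, 582 and 594 CPM in GFP-positive and 586 and 1631 CPM in GFP-negative libraries, the highest value being that of GFP-negative library 2. The part that a mixture of cells has in any single gene's change was not tested.

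**Figure D1:**
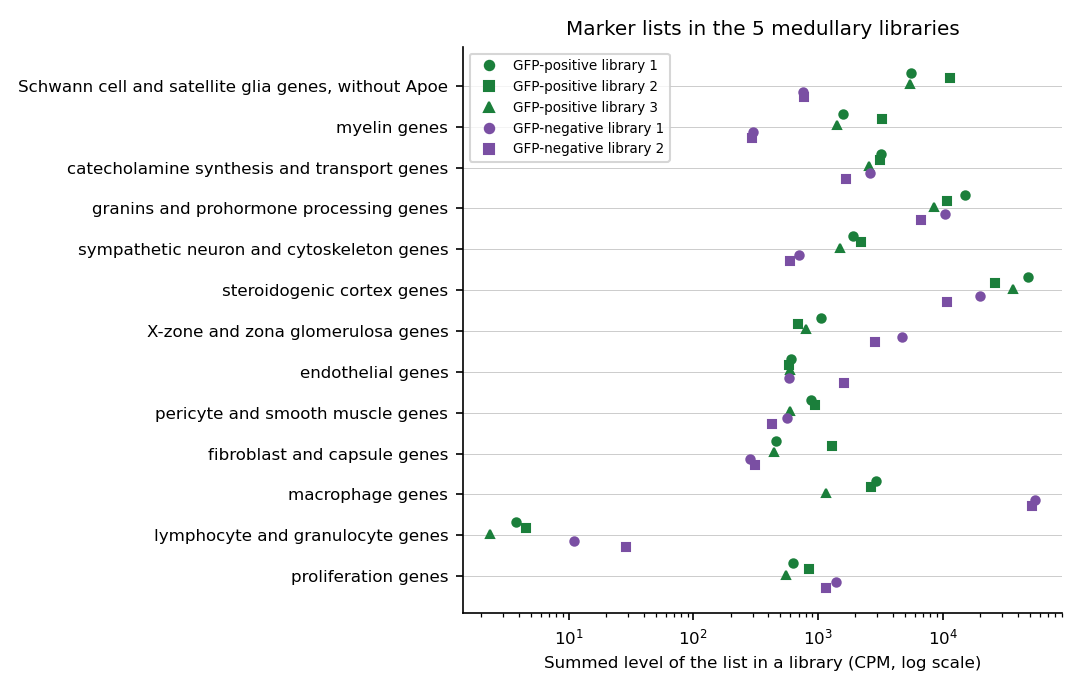
Summed CPM of each cell type marker list (log axis) in the 3 GFP-positive and 2 GFP-negative medullary libraries, one point per library. Macrophage genes lie at 1153 to 2946 CPM in GFP-positive and 52017 to 54887 CPM in GFP-negative libraries, while catecholamine and granin lists overlap between the gates.

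Glial identity genes made up a large group of rises. Among transcription factors of the Schwann lineage, which keep neural crest cells in a glial or precursor state, Sox10, Foxd3 and Sox2 had at most 1 count in the GFP-negative pair. Of 17 such factors tested, 6 were higher and none lower at an adjusted p under 0.05, with a median log2 change of 1.84. Leaving out GFP-positive library 2 added 1 lower member, and the age settings gave 6 higher and 0 lower with age as a term, and 6 higher and 1 lower among libraries of older mice.

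Sox10 (ENSMUSG00000033006, mm10 chromosome 15, 79154913 to 79164490), the factor required for all peripheral glia, measured 69.0, 158 and 60.6 CPM in the GFP-positive libraries and 0 and 0 CPM in the GFP-negative libraries. No count fell on Sox10 in either GFP-negative library, and with 3 counts summed over the negative pair taken as the floor the GFP-positive level was at least 1663-fold higher (edgeR adjusted p = 0.000280). Foxd3, which maintains neural crest and glial precursors, behaved alike at 24.5, 67.2 and 15.5 CPM with no count in the negative pair, at least 619-fold higher (edgeR adjusted p = 0.000305). Both genes were highest in GFP-positive library 2.

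Sox2, a factor of neural progenitors and satellite glia, measured 5.73, 9.94 and 5.48 against 0 and 0.0406 CPM, a single count in the negative pair, which gives a ratio of 388 (95% counting limits 69.3 and 15353) (edgeR adjusted p = 0.00614). Sox6 and Sox5, SoxD factors that modulate the activity of Sox10, were higher at 18.1, 20.1 and 13.7 against 1.75 and 0.569 CPM (log2 3.89, SE 0.66, edgeR adjusted p = 0.00238) and 22.1, 15.9 and 25.5 against 6.68 and 3.17 CPM (log2 2.10, SE 0.38, edgeR adjusted p = 0.00331). Tead1, the DNA-binding partner of Yap1, was higher as well at 120.3, 115 and 66.1 against 38.8 and 17.4 CPM (log2 1.84, SE 0.44, edgeR adjusted p = 0.0143). Sox5 and Tead1 were thus present in both gates. Tead1 lost its call without GFP-negative library 2 (edgeR adjusted p = 0.106).

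Egr2, which switches on the myelin programme, measured 3.36, 0.869 and 3.45 against 18.3 and 35.5 CPM and was not called (log2 -3.40, SE 1.61, edgeR adjusted p = 0.165). Sox9 reached 2.58, 3.23 and 4.23 against 1.06 and 0.325 CPM and was not called either (log2 2.26, SE 0.98, edgeR adjusted p = 0.130). Egr2 passed the test with limma-voom or the medulla alone (adjusted p 0.00996 to 0.0196).

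Structural and secreted genes of Schwann cells and satellite glia followed. Of 37 tested, 29 were higher and 2 lower, with a median log2 change of 5.39 against 0.09 for all genes. All 29 were highest in GFP-positive library 2. The count of higher members was 27 with age as a term and 24 among libraries of older mice. The lower members were Apoe and Itga6, with 1 lower without GFP-positive library 1 or GFP-negative library 1 or 2.

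S100b, a calcium-binding protein by which sustentacular cells are usually stained, measured 262, 541 and 264 CPM in the GFP-positive libraries and 1.31 and 2.07 CPM in the GFP-negative libraries, a 210.4-fold difference (log2 7.72, SE 0.51, edgeR adjusted p = 2.66e-05). Cdh19, a cadherin of Schwann cell precursors, measured 758, 1275 and 492 CPM in the GFP-positive libraries and 5.92 and 0.853 CPM in the GFP-negative libraries (log2 7.94, SE 0.82, edgeR adjusted p = 0.000166). In both genes the groups of libraries lay far apart and did not overlap.

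Gfap, the filament protein of non-myelinating glia, measured 121, 369.6 and 158 against 0 and 0.447 CPM (log2 9.95, SE 0.90, edgeR adjusted p = 8.92e-05). Fabp7, a fatty acid binding protein of radial and satellite glia, was less even, at 98.3, 750.2 and 547 against 1.90 and 1.67 CPM (log2 8.02, SE 1.496, edgeR adjusted p = 0.00402). Gpr37l1, a receptor of satellite glia, was higher at 187, 438 and 268 against 0.840 and 2.03 CPM (log2 7.70, SE 0.57, edgeR adjusted p = 4.08e-05). Sostdc1, a secreted antagonist of BMP and Wnt ligands, had no count in the negative pair and 62.8, 210.1 and 75.1 CPM in GFP-positive libraries, at least 2010.5-fold higher (edgeR adjusted p = 0.00154).

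Apoe, the lipid carrier of glia and of macrophages, was lower at 4749, 11769 and 5346 against 23899 and 24816 CPM (log2 -1.74, SE 0.51, edgeR adjusted p = 0.0335). Apoe lost its call without GFP-positive library 1 or 3 or GFP-negative library 1 or 2 (edgeR adjusted p 0.0929 to 0.111) and with age as a term, the replicate block or older mice alone (adjusted p 0.0524 to 0.0781). It was among the most abundant transcripts of both gates and so set the sum of the glial list, which with Apoe was 10382, 23313 and 10855 CPM in GFP-positive and 24663 and 25592 CPM in GFP-negative libraries and without it 5633, 11544 and 5509 CPM in GFP-positive and 764 and 776 CPM in GFP-negative libraries. The version without Apoe was chosen after the values were seen.

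Myelin genes moved in part. Of 14 tested, 5 were higher and none lower, with 3 higher without GFP-negative library 1 or 2. Mbp, the basic protein that compacts myelin, was higher at 193, 376 and 156 against 21.8 and 28.9 CPM (log2 3.25, SE 0.72, edgeR adjusted p = 0.00998) and was also present in the negative gate. Mag, which marks mature myelinating cells, was not called at 0.671, 0.522 and 0.0522 against 3.94 and 6.30 CPM (log2 -3.60, SE 1.56, edgeR adjusted p = 0.133). Mbp lost its call without GFP-negative library 1 or 2 (edgeR adjusted p 0.0574 to 0.0726) and with older mice alone (adjusted p = 0.0567). Mag passed the test with limma-voom or the medulla alone (adjusted p 0.0443 to 0.0489).

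**Figure D2:**
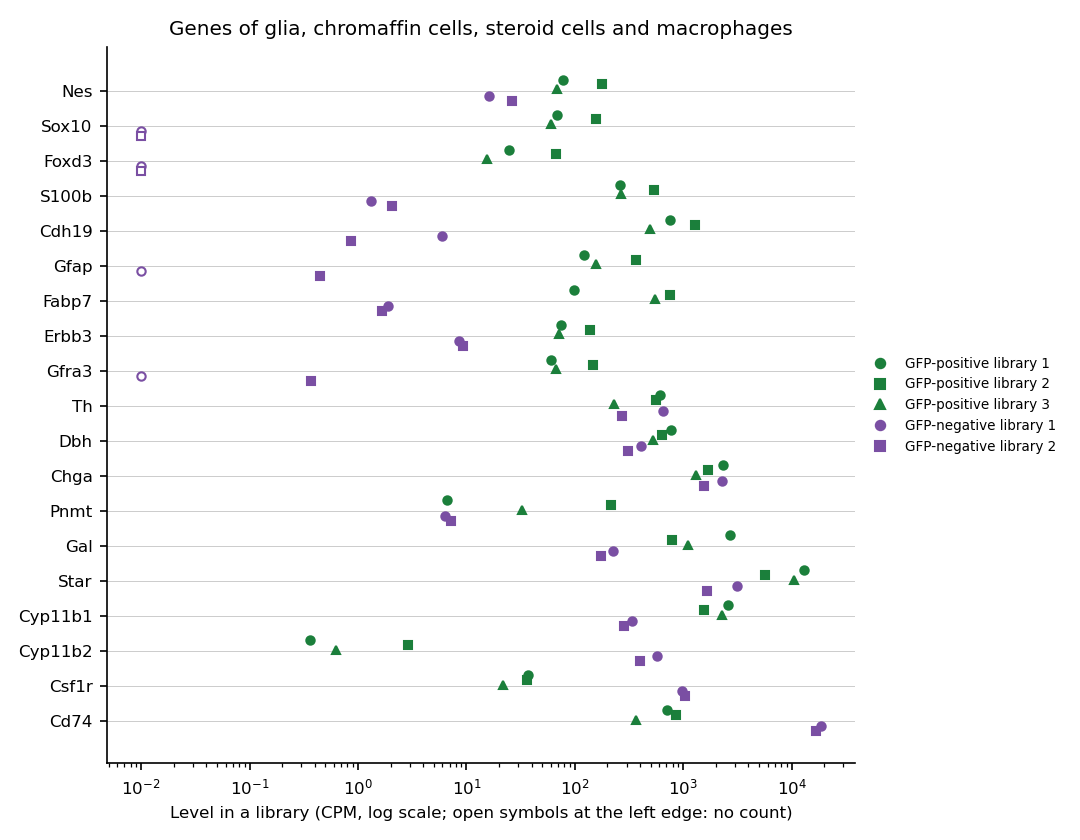
CPM (log axis) of genes of glia, chromaffin cells, steroid cells and macrophages in each of the 5 medullary libraries, one symbol per library, with open symbols at the left edge where a library has no count. The gates lie far apart for Sox10, S100b and Cyp11b2 and overlap for Th, Chga and Pnmt.

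Receptors and ligands of glial growth factors were higher in part. In the list of neuregulin, neurotrophin and GDNF family genes 10 of 26 tested were higher and 1 lower. Erbb3, the neuregulin receptor on which Schwann cells depend, measured 74.2, 137 and 72.2 CPM in the GFP-positive libraries and 8.51 and 9.22 CPM in the GFP-negative libraries (log2 3.41, SE 0.51, edgeR adjusted p = 0.00126), and its co-receptor Erbb2 10.2, 11.4 and 8.77 against 0.292 and 2.76 CPM (log2 2.73, SE 0.82, edgeR adjusted p = 0.0382). Erbb3 was present in both negative libraries. Erbb2 lost its call without GFP-positive library 1, 2 or 3 or GFP-negative library 1 (edgeR adjusted p 0.0630 to 0.0919) and with age as a term, the replicate block, the medulla alone or older mice alone (adjusted p 0.0700 to 0.154).

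Receptors of the GDNF family bind their ligands through Gfra co-receptors and signal through Ret. Gfra1 was higher at 67.8, 138 and 70.9 against 0.146 and 0.203 CPM (log2 9.02, SE 0.97, edgeR adjusted p = 0.000211), Gfra2 at 36.7, 85.5 and 24.96 against 0 and 0.894 CPM (log2 6.80, SE 1.12, edgeR adjusted p = 0.00211) and Gfra3, the artemin co-receptor, at 60.0, 148 and 67.7 against 0 and 0.366 CPM (log2 8.99, SE 1.09, edgeR adjusted p = 0.000378). Ret itself was not called at 3.92, 5.77 and 6.27 against 2.85 and 0.853 CPM (log2 1.52, SE 1.54, edgeR adjusted p = 0.542). Gdnf and Cntf, survival factors made by glia, had no count in the negative pair and were at least 96.3-fold higher (edgeR adjusted p = 0.0312) and at least 55.2-fold higher (edgeR adjusted p = 0.00298). Ngfr, the low-affinity neurotrophin receptor and a classical marker of Schwann cells, was higher at 27.6, 59.9 and 25.6 against 3.76 and 3.94 CPM (log2 3.29, SE 0.74, edgeR adjusted p = 0.0105). Gdnf lost its call without GFP-positive library 2 or 3 or GFP-negative library 1 or 2 (edgeR adjusted p 0.0538 to 0.121) and with age as a term or older mice alone (adjusted p 0.0675 to 0.156). Ngfr was no longer called without GFP-negative library 1 or 2 (edgeR adjusted p 0.0651 to 0.0676) and with older mice alone (adjusted p = 0.106).

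Axon guidance and adhesion genes were higher for 14 of 52 and lower for 3, with 8 higher without GFP-negative library 1. Sema3e and Sema3b, secreted semaphorins that repel axons and vessels, measured 16.1, 28.5 and 20.1 against 0 and 0 CPM and 50.6, 130.0 and 38.1 against 0 and 0.162 CPM, and Chl1, a neural cell adhesion protein, 169, 378 and 176 against 0.0365 and 3.53 CPM. All 3 were called, with edgeR adjusted p = 0.00345, 0.00116 and 0.00153. Nrp1, a semaphorin co-receptor also used by vessels and macrophages, was lower at 26.7, 31.1 and 20.3 against 92.8 and 139 CPM (log2 -2.15, SE 0.54, edgeR adjusted p = 0.0176). Nrp1 lost its call without GFP-positive library 3 or GFP-negative library 2 (edgeR adjusted p 0.0589 to 0.100) and with age as a term or older mice alone (adjusted p 0.0585 to 0.171).

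Many genes of the extracellular matrix were higher. Basement membrane, the sheet of laminin, collagen IV and nidogen that surrounds glia and vessels, had 15 of 20 genes higher and 1, the laminin receptor Itga6, lower, with a median of 2.02. Fewer passed when a negative library was left out, 9 higher without GFP-negative library 2 and 8 higher without GFP-negative library 1.

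Col4a1, a chain of the basement membrane's collagen IV, measured 340.4, 392.3 and 174 CPM in the GFP-positive libraries and 76.1 and 64.0 CPM in the GFP-negative libraries (log2 2.11, SE 0.32, edgeR adjusted p = 0.00141). Lama4 and Lama2, laminin chains of Schwann cell and vessel basement membrane, were higher at 35.6, 77.3 and 47.2 against 5.33 and 4.67 CPM (log2 3.41, SE 0.56, edgeR adjusted p = 0.00199) and 24.1, 57.2 and 16.6 against 1.79 and 0.650 CPM (log2 4.73, SE 1.182, edgeR adjusted p = 0.0176). Nid1, which links laminin to collagen IV, measured 165, 373 and 121 against 7.34 and 18.2 CPM (log2 4.11, SE 0.90, edgeR adjusted p = 0.00936). GFP-positive library 2 was the highest for each of these genes. Lama2 lost its call without GFP-negative library 1 or 2 (edgeR adjusted p 0.0596 to 0.119) and with older mice alone (adjusted p = 0.0816). Nid1 was no longer called without GFP-negative library 1 (edgeR adjusted p = 0.0710) and with older mice alone (adjusted p = 0.0522).

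Among other collagens and matrix genes 15 of 31 were higher and 1 lower, with 3 lower without GFP-positive library 2 and no lower without GFP-positive library 1 or GFP-negative library 2. Col5a3, a fibrillar collagen of peripheral nerve, was higher at 122, 75.6 and 62.9 against 0.438 and 0.325 CPM (log2 7.80, SE 0.70, edgeR adjusted p = 8.70e-05), and Vcan, a large proteoglycan, at 23.2, 48.96 and 16.2 against 0.0365 and 0.284 CPM (log2 7.51, SE 1.00, edgeR adjusted p = 0.000634). Col20a1 had 3 counts in the negative pair and 30.2, 32.3 and 15.1 CPM in GFP-positive libraries, a ratio of 465 (95% counting limits 159 and 2255) (edgeR adjusted p = 0.000130). Markers of fibroblasts, which also make collagens, are given further on, some higher and some lower.

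Lipid synthesis genes were higher in GFP-positive cells across most of both pathways. Cholesterol synthesis, which feeds both membranes and steroid hormones, had 18 of 23 genes higher and none lower, with a median log2 change of 1.52. Its summed level was 2527, 2186 and 1852 CPM in GFP-positive and 818 and 568 CPM in GFP-negative libraries. Age settings gave 18 higher and 0 lower with age as a term, and 14 higher and 0 lower among libraries of older mice. The summed steroidogenic transcripts were above the negative pair in every GFP-positive library too, and the share of the cholesterol genes' change that goes with them was not tested.

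Hmgcs1, an early enzyme of the pathway, measured 185, 222 and 135 CPM in the GFP-positive libraries and 61.2 and 41.6 CPM in the GFP-negative libraries (log2 1.81, SE 0.31, edgeR adjusted p = 0.00250). Fdps and Idi1, which make its isoprenoid units, were higher at 11.3, 11.8 and 8.15 against 1.64 and 1.54 CPM (log2 2.70, SE 0.41, edgeR adjusted p = 0.00127) and 16.9, 14.4 and 13.2 against 1.94 and 2.72 CPM (log2 2.67, SE 0.32, edgeR adjusted p = 0.000369).

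Fatty acid synthesis genes were higher for 10 of 14 and lower for none, with a median of 1.42. Scd1, the desaturase that makes oleic acid, measured 157, 213 and 197 against 15.9 and 5.73 CPM (log2 4.12, SE 0.49, edgeR adjusted p = 0.000356), and Fasn, the fatty acid synthase, 78.6, 100.5 and 87.9 against 35.03 and 26.6 CPM (log2 1.53, SE 0.25, edgeR adjusted p = 0.00193). Pnpla3, a lipid droplet hydrolase, had no count in the negative pair and was at least 252-fold higher (edgeR adjusted p = 0.00427). A strict form of the sterol response element, searched on both strands, stood in 0 of the 17 cholesterol gene promoters with a RefSeq sequence, against 73 of 27025 promoters of the same 300 bases (0.27%). It is a single form of the element, and its absence from a window says nothing of Srebf2, the factor that binds it.

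Lipid carriers and phospholipid genes were split, with 5 higher and 5 lower of 16, and 3 lower without GFP-positive library 1 or 3 or GFP-negative library 1 and 2 lower without GFP-negative library 2. Apod, a lipocalin abundant in nerve sheath cells, measured 3025, 5828 and 2278 CPM in the GFP-positive libraries and 8.62 and 7.96 CPM in the GFP-negative libraries (log2 8.80, SE 1.201, edgeR adjusted p = 0.000740), and Gpm6b, a membrane proteolipid of neural cells, 505, 1013 and 555 against 7.78 and 8.45 CPM (log2 6.41, SE 0.50, edgeR adjusted p = 4.51e-05). Abcg1 and Pltp, which move cholesterol and phospholipid out of macrophages, were lower at 7.43, 4.56 and 3.97 against 45.3 and 79.0 CPM (log2 -3.55, SE 0.52, edgeR adjusted p = 0.00114) and 8.10, 5.42 and 3.86 against 60.3 and 53.4 CPM (log2 -3.29, SE 0.46, edgeR adjusted p = 0.000877).

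Retinoic acid is made from retinal by aldehyde dehydrogenases. Aldh1a1 measured 2436, 1362 and 2091 CPM in the GFP-positive libraries and 12.4 and 31.7 CPM in the GFP-negative libraries (log2 6.48, SE 0.88, edgeR adjusted p = 0.000708). Its near-identical neighbour Aldh1a7 was also higher at 112, 145 and 186 against 2.81 and 0.122 CPM (log2 6.62, SE 1.23, edgeR adjusted p = 0.00398), and reads shared by these genes make their split uncertain. Aldh1a2, another retinal dehydrogenase, went the other way at 5.88, 12.6 and 5.85 against 120.5 and 37.2 CPM (log2 -3.27, SE 0.47, edgeR adjusted p = 0.00104), and so did Dhrs3, which reduces retinal to retinol, at 11.1, 16.8 and 20.6 against 126 and 191 CPM (log2 -3.29, SE 0.34, edgeR adjusted p = 0.000163). Cyp26a1, which breaks retinoic acid down, was near the floor at 0, 0 and 0.0522 against 0.0365 and 0.934 CPM and was not called. Across the list 4 of 18 were higher (22.2%) and 2, Aldh1a2 and Dhrs3, lower (11.1%), beside 10.2% and 11.1% of all genes. Abcb1b, a multidrug efflux transporter with a close paralog, Abcb1a, was higher at 2622, 1832 and 3990.5 against 26.7 and 28.2 CPM (log2 6.68, SE 0.37, edgeR adjusted p = 2.55e-05).

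**Figure D3:**
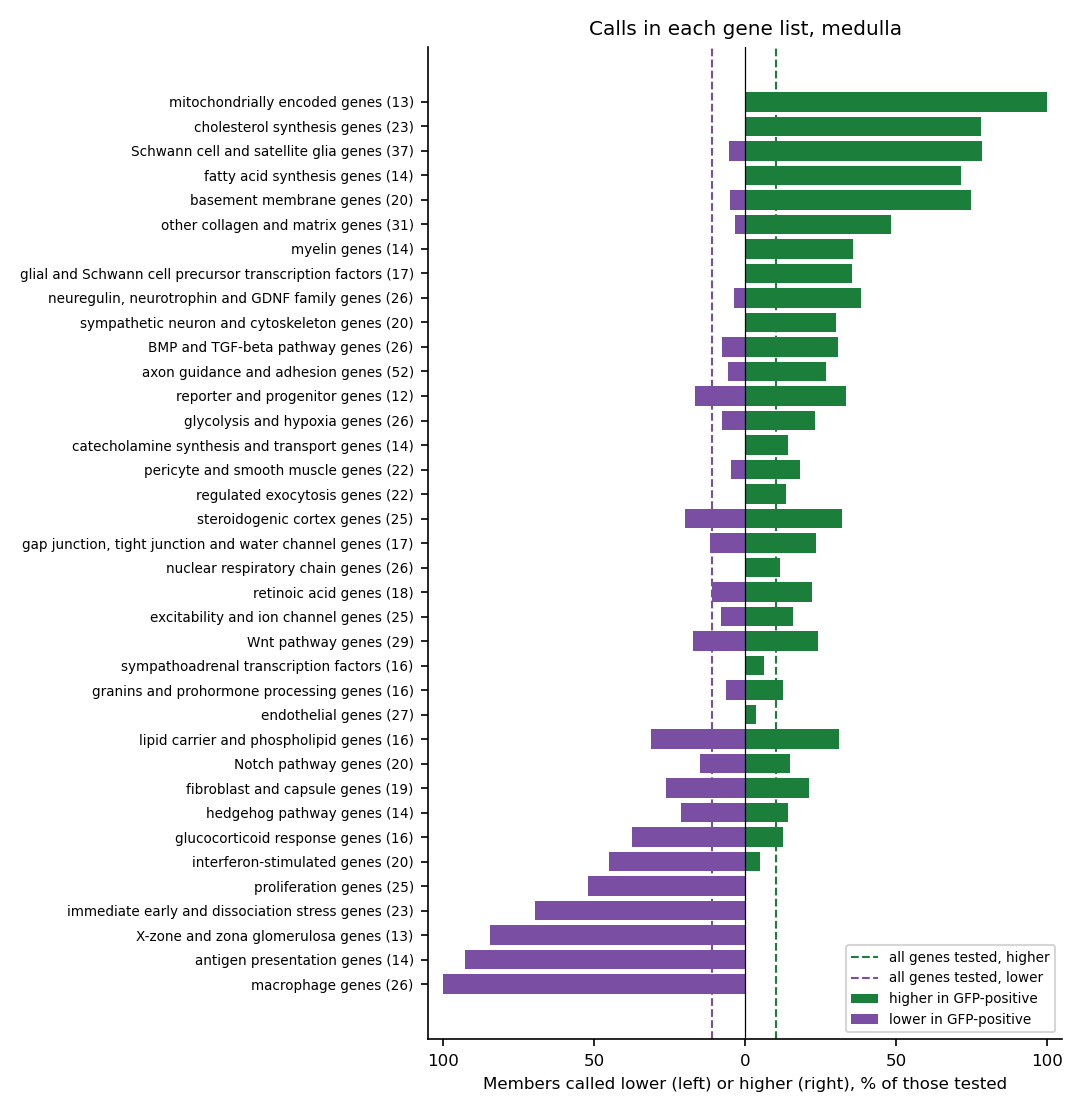
Percent of tested members called higher (right) or lower (left) in GFP-positive medullary cells at an edgeR adjusted p under 0.05 for each gene list, with the number tested in brackets and dashed lines at the 10.2% and 11.1% of all genes. Mitochondrially encoded, cholesterol and glial genes have calls mostly on the higher side, and all 26 macrophage genes lie on the lower side.

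Chromaffin cell genes were abundant in both gates, and the shares called higher, 14.3% of catecholamine and 12.5% of granin genes, were near the 10.2% of all genes. Positive log2 changes were found in 13 of 14 catecholamine and 14 of 16 granin genes tested, with medians of 0.54 and 0.94. Of the 14 genes of catecholamine synthesis and transport 2, Maoa and Qdpr, were higher and none lower, with no higher without GFP-negative library 2 and 1 lower without GFP-negative library 2, and none with age as a term. Of 16 granin and prohormone genes 2 were higher and 1 lower, with 1 higher without GFP-positive library 2 or 3 or GFP-negative library 1, no higher without GFP-negative library 2 and no lower without GFP-positive library 1 or 2 or GFP-negative library 1 or 2. These genes vary widely over the cortical libraries that share the fit, and that spread enters their standard errors. In a fit of the medullary libraries alone, 0 catecholamine and 2 granin genes were higher, and limma-voom on all libraries gave 4 and 6.

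Th, tyrosine hydroxylase, which starts catecholamine synthesis, measured 609, 559 and 232 CPM in the GFP-positive libraries and 651 and 273 CPM in the GFP-negative libraries (log2 0.01, SE 0.73, edgeR adjusted p = 0.994), and the gates overlapped. Dbh, which turns dopamine into noradrenaline, measured 779, 639.8 and 524 CPM in the GFP-positive libraries and 408 and 312 CPM in the GFP-negative libraries (log2 0.85, SE 1.08, edgeR adjusted p = 0.642). Chga and Chgb, the granins that fill secretory vesicles, measured 2335, 1689.8 and 1307 against 2274 and 1548 CPM (log2 -0.10, SE 1.177, edgeR adjusted p = 0.966) and 5058, 3788 and 2695 against 4159.6 and 2657 CPM (log2 0.17, SE 1.54, edgeR adjusted p = 0.956). Chromaffin RNA was thus present on either side. Differences up to several times these errors would not have been detected. The granin gene Scg3, at log2 1.24 with an SE of 0.37, only just passed (edgeR adjusted p = 0.0467).

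Cyclic AMP response elements, to which Creb binds, are known in promoters of this gene group. The full palindrome TGACGTCA was found in 4 of 15 granin list promoters (26.7%) and 2 of 9 catecholamine list promoters (22.2%), against 549 of 27025 promoters overall (2.03%). Among promoters of genes tested here the share was 3.38%. The palindrome was not limited to chromaffin lists: it stood in 2 of 11 fatty acid list promoters (18.2%) and 0 of 17 cholesterol list promoters. The windows around the sites of Th, Scg2 and Chgb, from 40 bases before the site to 40 after it, or to the start site where that is nearer, are shown because these genes carry the chromaffin signal found in both gates. They are from RefSeq on GRCm38.p6, 5′ to 3′ on each gene's strand, with the palindrome in capitals. Th lies at chr7:142899996-142900080 (minus), Scg2 at chr1:79440047-79440134 (minus) and Chgb at chr2:132781530-132781617 (plus).
Th: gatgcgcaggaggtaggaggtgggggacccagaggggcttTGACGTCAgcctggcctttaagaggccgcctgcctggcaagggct
Scg2: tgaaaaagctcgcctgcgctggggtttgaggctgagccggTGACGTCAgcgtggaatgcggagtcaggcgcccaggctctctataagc
Chgb: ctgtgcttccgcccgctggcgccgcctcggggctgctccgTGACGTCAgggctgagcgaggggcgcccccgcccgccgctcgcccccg
The site begins 45 bases before the start of Th, 68 before that of Scg2 and 72 before that of Chgb. In the libraries Scg2 measured 2901, 1945 and 1638 against 1636 and 881 CPM (log2 0.78, SE 1.598, edgeR adjusted p = 0.782), and like Th and Chgb it was not called.

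Pnmt, which makes adrenaline from noradrenaline, varied most among the catecholamine genes, at 6.61, 216 and 32.3 CPM in the GFP-positive libraries and 6.32 and 7.23 CPM in the GFP-negative libraries. Library 2 was far above the others, library 1 lay within the range of the negative pair, and the gene was not called (log2 3.65, SE 1.44, edgeR adjusted p = 0.131). Without GFP-positive library 1 it was called, at a log2 change of 4.20 (edgeR adjusted p = 0.0399), and with age as a term the change was 0.02. Maoa, which degrades catecholamines, was higher at 121, 96.8 and 258 against 55.4 and 33.7 CPM (log2 1.83, SE 0.47, edgeR adjusted p = 0.0190). Maoa lost its call without GFP-negative library 2 (edgeR adjusted p = 0.137) and with age as a term, the medulla alone or older mice alone (adjusted p 0.0586 to 0.0773).

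Gal, the peptide galanin, was above the negative pair in each positive library, at 2682, 780.1 and 1099 against 223 and 176 CPM, but did not pass edgeR's test (log2 2.93, SE 1.504, edgeR adjusted p = 0.211). Scg3, a granin of the vesicle membrane, was higher at 69.5, 135 and 71.2 against 50.4 and 27.8 CPM (log2 1.24, SE 0.37, edgeR adjusted p = 0.0467), and Adcyap1, the peptide PACAP that nerves use to trigger adrenal secretion, was at 0.929, 0 and 1.10 against 0 and 0 CPM and was not called (edgeR adjusted p = 0.171). Cpe, which trims prohormones, was lower at 602, 503 and 819.9 against 1027 and 942 CPM (log2 -0.62, SE 0.19, edgeR adjusted p = 0.0455). Gal passed the test with limma-voom or the medulla alone (adjusted p 0.00261 to 0.0247). Scg3 was no longer called without GFP-positive library 2 or 3 or GFP-negative library 2 (edgeR adjusted p 0.0511 to 0.238) and with age as a term, the replicate block, the medulla alone or older mice alone (adjusted p 0.0793 to 0.267). Cpe missed the threshold without GFP-positive library 1 or 2 or GFP-negative library 1 or 2 (edgeR adjusted p 0.0981 to 0.162) and with total counts, no filter, age as a term, the medulla alone or older mice alone (adjusted p 0.0527 to 0.120).

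Of 16 sympathoadrenal transcription factors 1, Hand2, was higher (6.25%, beside 10.2% of all genes) and none lower, with no higher without GFP-negative library 2. The list summed to 546, 563 and 482 CPM in GFP-positive and 581 and 613 CPM in GFP-negative libraries, although 13 of the 16 had a positive log2 change. Hand2, a factor of noradrenergic cells, measured 91.1, 181 and 85.6 against 32.6 and 17.5 CPM (log2 2.25, SE 0.52, edgeR adjusted p = 0.0118). Hand2 lost its call without GFP-negative library 2 (edgeR adjusted p = 0.0964) and with older mice alone (adjusted p = 0.113).

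Neuronal cytoskeleton genes had 6 of 20 higher and none lower, and 11 higher in a fit of the medullary libraries alone. Gap43, a growth-cone protein found in glia as well, had the largest rise at 17.1, 39.3 and 26.2 against 1.13 and 0.162 CPM (log2 5.39, SE 0.81, edgeR adjusted p = 0.00242). Uchl1, a deubiquitinase of neurons and endocrine cells, was higher at 236, 282 and 226 against 47.6 and 47.6 CPM (log2 2.38, SE 0.19, edgeR adjusted p = 4.65e-05), and Map2, a microtubule protein of dendrites, at 46.4, 86.4 and 34.4 against 9.42 and 9.34 CPM (log2 2.57, SE 0.47, edgeR adjusted p = 0.00363). Elavl2, a neuronal RNA-binding protein, at 1.75, 4.14 and 1.88 against 0.0731 and 0.203 CPM, and Tubb3, the tubulin used to mark neurons, at 30.4, 24.3 and 23.5 against 13.1 and 17.1 CPM, did not pass. Elavl2 passed the test with DESeq2, limma-voom or the medulla alone (adjusted p 0.0274 to 0.0335).

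Exocytosis genes had 3 of 22 higher (13.6%, near the 10.2% of all genes), with 1 higher without GFP-negative library 2 and 10 by limma-voom. However, 20 of the 22 had a positive log2 change, with a median of 1.01 beside 0.09 for all genes. Their sums were 1394, 1231 and 1063 CPM in GFP-positive and 709 and 552 CPM in GFP-negative libraries. Ion channel genes had 4 of 25 higher and 2 lower, with 1 lower without GFP-positive library 1 or 2 and no lower without GFP-positive library 3 or GFP-negative library 1. Kcna1 and Kcna2, voltage-gated potassium channels, were higher at 17.8, 40.8 and 16.7 against 0.0365 and 0.487 CPM (log2 6.58, SE 0.96, edgeR adjusted p = 0.00112) and 41.9, 118 and 51.2 against 0.110 and 0.772 CPM (log2 7.33, SE 1.19, edgeR adjusted p = 0.00190), and Scn7a, a sodium channel of non-myelinating Schwann cells, at 481, 719.9 and 277 against 0.0731 and 3.74 CPM (log2 8.04, SE 1.07, edgeR adjusted p = 0.000637). The nicotinic receptor gene Chrna3, through which nerves drive chromaffin cells, measured 134, 87.9 and 121 against 64.9 and 43.99 CPM (log2 1.07, SE 1.35, edgeR adjusted p = 0.637). Chrna3 passed the test with limma-voom (adjusted p = 0.0389).

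Genes of steroid synthesis shared by the cortex were in part higher and those of its outer zone lower. Of 25 steroidogenic genes 8 were higher and 5 lower, and all 8 higher genes were highest in GFP-positive library 1. The count was 5 higher without GFP-negative library 2. The age settings gave 8 higher and 5 lower with age as a term, and 9 higher and 4 lower among libraries of older mice.

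Star, which carries cholesterol into the mitochondrion, measured 12883, 5683 and 10632 CPM in the GFP-positive libraries and 3138 and 1650.3 CPM in the GFP-negative libraries (log2 2.02, SE 0.36, edgeR adjusted p = 0.00299). Cyp11b1, which completes corticosterone in the zona fasciculata, was higher at 2566, 1558 and 2289.9 against 335 and 284 CPM (log2 2.79, SE 0.21, edgeR adjusted p = 4.38e-05), and Cyp11a1, the first enzyme of the pathway, at 6064, 3368 and 4000.3 against 2032 and 1048 CPM (log2 1.54, SE 0.33, edgeR adjusted p = 0.00770). Star was abundant in the negative gate as well. Cyp11a1 lost its call without GFP-negative library 2 (edgeR adjusted p = 0.0575).

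Cyp11b2, which makes aldosterone in the outer zona glomerulosa, was lower at 0.361, 2.89 and 0.627 CPM in the GFP-positive libraries and 568 and 399 CPM in the GFP-negative libraries (log2 -8.44, SE 0.67, edgeR adjusted p = 4.68e-05). Agtr1b, the angiotensin receptor of that zone, measured 0, 0.243 and 0 against 109 and 42.9 CPM (log2 -9.47, SE 0.78, edgeR adjusted p = 5.75e-05), and Hsd3b6, its steroid dehydrogenase isoform, 19.7, 48.3 and 42.0 against 436 and 199 CPM (log2 -3.11, SE 0.60, edgeR adjusted p = 0.00463). Hsd3b6 shares much of its sequence with Hsd3b1, so its counts are uncertain. Nr0b1, a repressor of steroid genes in outer and progenitor cells, was lower with 1 count in the GFP-positive libraries, at 0.0516, 0 and 0 against 8.40 and 6.13 CPM, a ratio of 493 (95% counting limits 88.0 and 19524) (edgeR adjusted p = 0.000196). In the list of zona glomerulosa and X-zone genes 11 of 13 were lower and none higher, with a median of -3.11.

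Macrophage genes fell together. All 26 of 26 tested were lower in GFP-positive cells, beside 11.1% of all genes, with a median log2 change of -4.75. The count was 26 with age as a term and was 19 among libraries of older mice.

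Csf1r, the growth factor receptor on which macrophages depend, measured 37.4, 36.3 and 21.6 CPM in the GFP-positive libraries and 974 and 1039 CPM in the GFP-negative libraries (log2 -4.98, SE 0.35, edgeR adjusted p = 3.21e-05). C1qa, a complement component made by tissue macrophages, measured 137, 101 and 46.6 against 2734 and 2669 CPM (log2 -4.83, SE 0.71, edgeR adjusted p = 0.00112), and Cd163, a scavenger receptor of resident macrophages, 2.01, 0 and 0.261 against 158 and 113 CPM (log2 -7.56, SE 1.56, edgeR adjusted p = 0.00673). Cx3cr1, the fractalkine receptor, was lower at 0.413, 9.21 and 4.65 against 190.3 and 316 CPM (log2 -5.70, SE 0.95, edgeR adjusted p = 0.00214). Lyz2, the macrophage lysozyme, measured 769, 638 and 219 against 10908 and 8470.1 CPM (log2 -4.16, SE 0.78, edgeR adjusted p = 0.00411), and its paralog Lyz1 cannot be cleanly separated from it in read counts. Of these, Cd163 was at 0 in 1 GFP-positive library and the others were above 0 in all 3. Cd163 lost its call with older mice alone (adjusted p = 0.103). Lyz2 was no longer called with older mice alone (adjusted p = 0.0863).

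Antigen presentation genes were lower for 13 of 14. The class II genes led: H2-Aa measured 301, 454 and 206 against 8884 and 8991 CPM (log2 -4.80, SE 0.74, edgeR adjusted p = 0.00141) and Ciita, the master activator of class II genes, 1.86, 3.06 and 2.14 against 16.9 and 40.8 CPM (log2 -3.61, SE 0.64, edgeR adjusted p = 0.00296). B2m, the light chain of class I molecules on nearly all cells, differed far less at 3605, 5266 and 3461 against 6579 and 6671 CPM (log2 -0.69, SE 0.21, edgeR adjusted p = 0.0377). Ciita lost its call with older mice alone (adjusted p = 0.0507). B2m was no longer called without GFP-positive library 1 or 3 or GFP-negative library 1 or 2 (edgeR adjusted p 0.108 to 0.125) and with the medulla alone or older mice alone (adjusted p 0.0515 to 0.0814). Lymphocyte and granulocyte genes were scarce, at sums of 3.82, 4.52 and 2.35 CPM in GFP-positive and 11.1 and 28.9 CPM in GFP-negative libraries.

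Vascular genes gave few calls. Of 27 endothelial genes 1, Ramp2, was higher (3.7%, beside 10.2% of all genes) and none lower. Only 3 had a positive log2 change, and the median was -1.08. No gene was higher without GFP-positive library 2 or GFP-negative library 1. The lower count was 4 without GFP-negative library 1 or by DESeq2, 2 by limma-voom and 1 without GFP-positive library 1. Pecam1, which joins endothelial cells, measured 42.3, 27.2 and 31.1 CPM in the GFP-positive libraries and 33.5 and 65.0 CPM in the GFP-negative libraries (log2 -0.56, SE 0.49, edgeR adjusted p = 0.477), and Cdh5, their cadherin, 13.01, 5.67 and 8.41 against 7.89 and 26.7 CPM (log2 -0.94, SE 0.81, edgeR adjusted p = 0.462). The positive libraries lay within or near the span of the negative pair for both. Ramp2, which lets a receptor respond to adrenomedullin, measured 83.7, 130.5 and 66.7 against 13.4 and 31.3 CPM (log2 2.07, SE 0.55, edgeR adjusted p = 0.0238). Ramp2 lost its call without GFP-positive library 2 or GFP-negative library 1 (edgeR adjusted p 0.0596 to 0.144) and with older mice alone (adjusted p = 0.124).

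Pericyte and smooth muscle genes were higher for 4 of 22 (18.2%) and lower for 1 (4.55%), beside 10.2% and 11.1% of all genes. The lower count was 2 without GFP-positive library 2 and 0 without GFP-negative library 1. Notch3, a receptor of mural cells, measured 13.9, 4.42 and 9.35 against 0.219 and 0.406 CPM (log2 4.87, SE 0.77, edgeR adjusted p = 0.00166), and Cspg4, the NG2 proteoglycan of pericytes and glial precursors, 6.97, 16.1 and 2.61 against 0 and 0.406 CPM (log2 5.39, SE 1.42, edgeR adjusted p = 0.0222). Rgs5 and Pdgfrb, the usual pericyte markers, were not called at 75.1, 222 and 107 against 138 and 118 CPM (log2 0.07, SE 0.72, edgeR adjusted p = 0.961) and 3.92, 4.56 and 5.01 against 2.56 and 2.40 CPM (log2 0.86, SE 0.93, edgeR adjusted p = 0.568). Cspg4 lost its call without GFP-positive library 2 or GFP-negative library 1 (edgeR adjusted p 0.0569 to 0.0771) and with the medulla alone or older mice alone (adjusted p 0.0613 to 0.0848).

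Fibroblast and capsule genes split into 4 higher and 5 lower of 19, with no higher without GFP-negative library 1 or 2, 3 lower without GFP-positive library 2 or GFP-negative library 2 and 2 lower without GFP-positive library 1 or 3 or GFP-negative library 1. Postn, a matricellular protein, was higher at 192, 753 and 238 against 0.986 and 2.60 CPM (log2 7.79, SE 1.85, edgeR adjusted p = 0.0139), and Col3a1 at 37.3, 123 and 30.9 against 0.877 and 2.23 CPM (log2 5.36, SE 1.36, edgeR adjusted p = 0.0190). Lum, a keratan sulfate proteoglycan, measured 0, 0.0348 and 0 against 20.4 and 1.503 CPM, a ratio of 769.9 (95% counting limits 138 and 30462) for the negative over the positive gate (edgeR adjusted p = 0.0104), while Pdgfra, at 0, 0.0695 and 0.0522 against 3.10 and 4.87 CPM, missed the threshold (edgeR adjusted p = 0.0573). Tcf21, a factor of capsular stromal cells, had no count in GFP-positive libraries and was at least 37.3-fold lower (edgeR adjusted p = 0.0242). Postn lost its call without GFP-negative library 1 or 2 (edgeR adjusted p 0.0729 to 0.0904) and with older mice alone (adjusted p = 0.0772). Col3a1 was no longer called without GFP-negative library 1 or 2 (edgeR adjusted p 0.0794 to 0.117) and with age as a term or older mice alone (adjusted p 0.0513 to 0.0913). Lum missed the threshold without GFP-negative library 1 (edgeR adjusted p = 0.0718) and with limma-voom or older mice alone (adjusted p 0.0865 to 0.154). Pdgfra passed the test with limma-voom, no filter, age as a term, the replicate block or the medulla alone (adjusted p 0.00999 to 0.0423). Tcf21 was no longer called without GFP-positive library 1, 2 or 3 or GFP-negative library 2 (edgeR adjusted p 0.0529 to 0.0788) and with limma-voom or older mice alone (adjusted p 0.0771 to 0.182).

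Cell cycle genes were lower for 13 of 25 and higher for none, with 8 lower without GFP-positive library 3 and 7 lower without GFP-negative library 1. Mki67, the protein of dividing cells, had 3 counts in all GFP-positive libraries and measured 0.103, 0 and 0.0522 against 25.6 and 9.87 CPM, a ratio of 408 (95% counting limits 139 and 1980.1) for the negative over the positive gate (edgeR adjusted p = 0.0206). Top2a, the topoisomerase of mitosis, measured 0.103, 0.939 and 2.25 against 18.1 and 12.4 CPM and was not called (log2 -3.80, SE 1.45, edgeR adjusted p = 0.0897). Pcna, used in both replication and repair, measured 43.2, 46.7 and 34.6 against 59.6 and 69.4 CPM and just missed the threshold (log2 -0.64, SE 0.21, edgeR adjusted p = 0.0529). Mki67 lost its call without GFP-positive library 1, 2 or 3 or GFP-negative library 1 (edgeR adjusted p 0.0542 to 0.0641) and with age as a term or older mice alone (adjusted p 0.0552 to 0.240). Top2a passed the test with DESeq2, limma-voom or the medulla alone (adjusted p 0.0192 to 0.0461). Pcna passed the test with RLE scaling, DESeq2, limma-voom or the stricter filter (adjusted p 0.0206 to 0.0460). The macrophage sums moved with these genes, and the part of macrophages in them was not tested.

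Immediate early and dissociation stress genes, which rise within minutes when tissue is digested, were lower for 16 of 23 and higher for none, with 10 lower without GFP-negative library 2. Their sums were 8833, 8416 and 6790 CPM in GFP-positive and 21745 and 26192 CPM in GFP-negative libraries. Atf3 measured 117, 199 and 128 against 896 and 1498 CPM (log2 -3.01, SE 0.41, edgeR adjusted p = 0.000744), Zfp36, which destabilises cytokine transcripts, 488, 525 and 279.8 against 2564 and 3391 CPM (log2 -2.79, SE 0.26, edgeR adjusted p = 0.000107), and Fos 1792, 1470.1 and 1157 against 3597 and 3096 CPM (log2 -1.184, SE 0.30, edgeR adjusted p = 0.0178). Hspa1a and Hspa1b, near-identical heat shock genes, were lower at 87.4, 168 and 145 against 371 and 646 CPM (edgeR adjusted p = 0.00976) and 61.1, 96.9 and 115 against 125 and 335 CPM (edgeR adjusted p = 0.0393). Fos lost its call without GFP-positive library 3 or GFP-negative library 1 (edgeR adjusted p 0.0575 to 0.0869) and with older mice alone (adjusted p = 0.225). Hspa1a was no longer called without GFP-negative library 2 (edgeR adjusted p = 0.0838). Hspa1b missed the threshold without GFP-positive library 1 or 2 or GFP-negative library 2 (edgeR adjusted p 0.0738 to 0.475) and with age as a term, the medulla alone or older mice alone (adjusted p 0.0794 to 0.0986).

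Glucocorticoid response genes had 2 of 16 higher (12.5%, near the 10.2% of all genes) and 6 lower (37.5%, beside 11.1% of all genes). The higher count was 1 without GFP-positive library 3 and 0 without GFP-positive library 2 or GFP-negative library 1 or 2. Tsc22d3, a direct target of the glucocorticoid receptor, was lower at 408, 418 and 172 against 1388 and 1225 CPM (log2 -1.97, SE 0.32, edgeR adjusted p = 0.00175), and Hsd11b2, which inactivates corticosterone, was at 2.17, 0 and 0.940 against 0 and 0 CPM and was not called (edgeR adjusted p = 0.143). Interferon-stimulated genes were lower for 9 of 20 and higher for 1, with 2 higher without GFP-positive library 1, no higher without GFP-positive library 2 or 3 or GFP-negative library 2 and 5 lower without GFP-positive library 3 or GFP-negative library 1 or 2. Irf7, a central factor of that response, measured 16.6, 24.9 and 31.4 against 138 and 158 CPM (log2 -2.60, SE 0.29, edgeR adjusted p = 0.000258).

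Mitochondrially encoded genes were higher for all 13 of 13, each highest in GFP-positive library 3, with 7 higher without GFP-positive library 3 and 5 higher without GFP-negative library 1, and 7 with age as a term. mt-Co1, a subunit of cytochrome oxidase, measured 23701, 16209.8 and 24136 against 10388 and 11371 CPM (log2 0.97, SE 0.20, edgeR adjusted p = 0.00676). Nuclear respiratory chain genes were higher for 3 of 26 (11.5%, near the 10.2% of all genes), at a median of 0.24. Steroidogenic cells are rich in mitochondria and their transcripts moved the same way, and the part of either in the mitochondrial share was not tested.

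Glycolysis and hypoxia genes had 6 of 26 higher (23.1%) and 2 lower (7.69%), beside 10.2% and 11.1% of all genes. The higher count was 3 without GFP-positive library 3 and 2 without GFP-negative library 2. The lower count was 1 without GFP-negative library 1. Aldoc, the aldolase of nerve and glia, was higher at 120.1, 249.4 and 152 against 13.04 and 11.3 CPM (log2 3.84, SE 0.35, edgeR adjusted p = 9.77e-05), and Ndrg1, needed by Schwann cells for myelin upkeep, at 245, 536 and 251 against 30.7 and 36.6 CPM (log2 3.35, SE 0.37, edgeR adjusted p = 0.000221). Ldha, the lactate dehydrogenase of glycolytic cells, was lower at 125, 159.6 and 112 against 245 and 219 CPM (log2 -0.81, SE 0.17, edgeR adjusted p = 0.00769).

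Notch and hedgehog genes called in either direction were 2 or 3 per list, beside 10.2% higher and 11.1% lower of all genes. In the Notch pathway, in which membrane ligands of a neighbour release a receptor fragment that turns on Hes and Hey genes, 3 of 20 were higher (15.0%) and 3 lower (15.0%). Hey2 and Heyl, targets of the pathway, were higher at 46.7, 96.6 and 57.6 against 1.31 and 1.10 CPM (log2 5.79, SE 0.83, edgeR adjusted p = 0.000975) and 46.6, 129 and 68.5 against 3.62 and 3.37 CPM (log2 4.54, SE 0.52, edgeR adjusted p = 0.000301), together with the receptor Notch3. Hes1, a general target, measured 95.3, 56.0 and 152 against 28.4 and 105.1 CPM (log2 0.60, SE 0.57, edgeR adjusted p = 0.514), and the ligand Jag1 was lower at 9.81, 14.3 and 5.06 against 39.7 and 35.7 CPM (log2 -1.95, SE 0.52, edgeR adjusted p = 0.0234). Jag1 lost its call without GFP-positive library 1 or 3 or GFP-negative library 1 or 2 (edgeR adjusted p 0.0606 to 0.0858) and with age as a term or older mice alone (adjusted p 0.0679 to 0.128).

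Among Wnt pathway genes 7 of 29 were higher (24.1%) and 5 lower (17.2%), beside 10.2% and 11.1% of all genes. The higher ones included secreted antagonists: Sfrp5, with no count in the negative pair and 48.6, 103 and 33.3 CPM in GFP-positive libraries, was at least 1068-fold higher (edgeR adjusted p = 0.00228), and Sfrp1 measured 137, 341 and 131 against 2.30 and 10.6 CPM (log2 4.98, SE 0.85, edgeR adjusted p = 0.00241). Wnt4, which supports the zona glomerulosa, was lower at 8.93, 13.98 and 8.25 against 116 and 81.6 CPM (log2 -3.24, SE 0.40, edgeR adjusted p = 0.000383). Axin2, a general read-out of the pathway, measured 7.38, 7.23 and 6.21 against 5.33 and 5.61 CPM (log2 0.34, SE 0.33, edgeR adjusted p = 0.516).

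Hedgehog genes were higher for 2 (14.3%) and lower for 3 (21.4%) of 14, with 1 higher without GFP-negative library 2. Shh, the ligand that outer cortical cells send to the capsule, was lower at 0, 1.56 and 1.51 against 21.4 and 18.4 CPM (log2 -4.24, SE 0.87, edgeR adjusted p = 0.00651), and Dhh, the ligand of Schwann cells, was higher at 19.7, 58.5 and 17.2 against 5.95 and 1.14 CPM (log2 3.16, SE 0.79, edgeR adjusted p = 0.0180). BMP and TGF-beta genes were higher for 8 and lower for 2 of 26, with 1 lower without GFP-positive library 1 or GFP-negative library 2. Tgfb2 measured 95.8, 214 and 85.9 against 0.402 and 0 CPM (log2 9.27, SE 1.56, edgeR adjusted p = 0.00233) and Bmp7 119, 69.1 and 141 against 4.13 and 6.34 CPM (log2 4.39, SE 0.37, edgeR adjusted p = 6.77e-05), while Tgfbr1, a receptor chain, was lower at 64.0, 56.9 and 53.5 against 579 and 810.2 CPM (log2 -3.58, SE 0.26, edgeR adjusted p = 3.59e-05). Dhh lost its call without GFP-negative library 2 (edgeR adjusted p = 0.0898) and with age as a term, the medulla alone or older mice alone (adjusted p 0.0566 to 0.111).

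Beyond the lists, the largest fitted rises among called genes with at least 10 CPM included Nkain4, a partner of the sodium pump, at 73.5, 165 and 94.98 CPM, and Kcna6, a potassium channel, at 45.9, 94.2 and 33.3 CPM. Neither had a count in the negative pair, and they were at least 1927-fold higher (edgeR adjusted p = 0.000130) and at least 1002-fold higher (edgeR adjusted p = 0.000339). Avpr1a, a vasopressin receptor, also had none there and 12.6, 20.6 and 16.1 CPM in GFP-positive libraries (at least 285-fold higher, edgeR adjusted p = 0.0242). Among the largest falls were Vsig4, a complement receptor of resident macrophages, at 0, 0 and 0 against 10.8 and 10.5 CPM (at least 239-fold lower), Cxcl9, an interferon-induced chemokine, at 0, 0.0695 and 0 against 12.4 and 43.1 CPM, and Fpr1, the formyl peptide receptor of phagocytes, at 0, 0 and 0 against 20.5 and 1.34 CPM (at least 245-fold lower). Avpr1a lost its call without GFP-negative library 1 or 2 (edgeR adjusted p 0.0954 to 0.100) and with older mice alone (adjusted p = 0.121). Cxcl9 was no longer called without GFP-negative library 2 (edgeR adjusted p = 0.0546) and with older mice alone (adjusted p = 0.150). Fpr1 missed the threshold without GFP-positive library 1, 2 or 3 or GFP-negative library 1 or 2 (edgeR adjusted p 0.0573 to 0.186) and with DESeq2, age as a term, the replicate block or older mice alone (adjusted p 0.0720 to 0.229). The other largest falls included the glycosyltransferase Galnt3, at 0, 0 and 0 against 10.2 and 15.5 CPM (at least 288-fold lower), and the potassium channel subunit Kcne4, at 0, 0 and 0 against 10.3 and 10.3 CPM (at least 231-fold lower). Galnt3 lost its call with older mice alone (adjusted p = 0.0547).

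**Figure D4:**
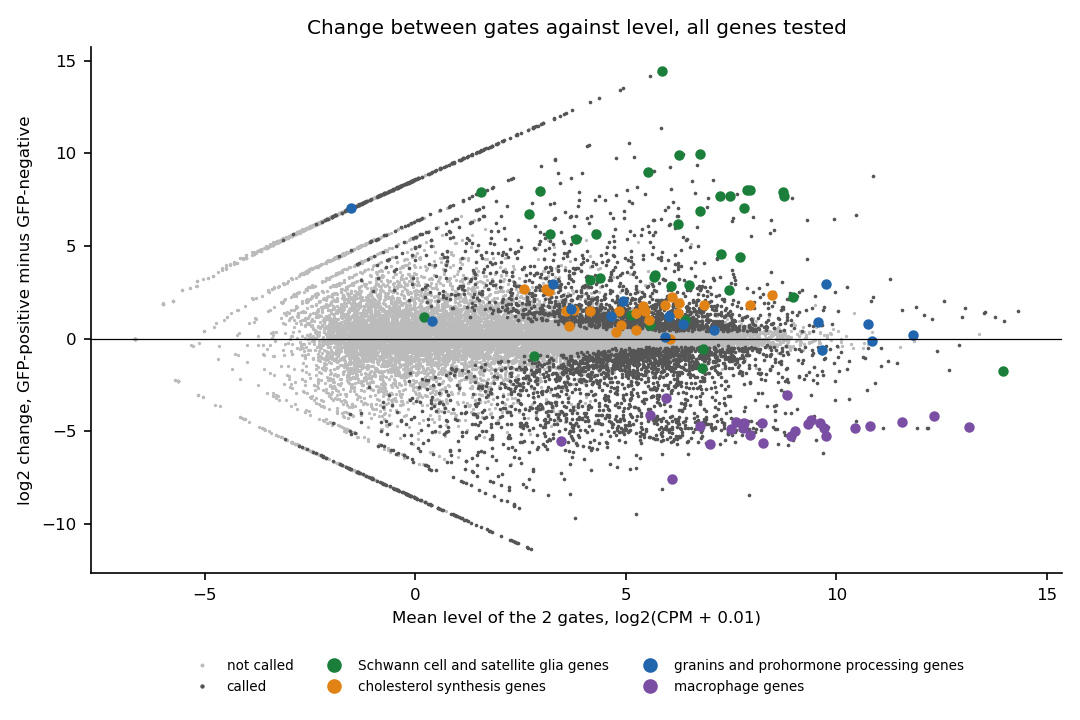
Log2 change of GFP-positive minus GFP-negative medullary cells (vertical axis) against the mean level of the gates as log2 of CPM plus 0.01 (horizontal axis) for 20893 genes, called genes dark and 4 gene lists in colour. Glial, cholesterol and granin genes lie mostly above 0, at medians of 5.39, 1.52 and 0.94, and all 26 macrophage genes lie below it. Genes with no or few counts in a gate form the diagonal streaks at the left.

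To see which of these changes were particular to the medulla, the gate effect was compared with that in the dissected cortex of the same series, 3 GFP-positive against 3 GFP-negative libraries, by the interaction term of the same fit. The effects differed at an adjusted p under 0.05 for 337 genes (1.61%), 158 (0.756%) with a higher and 179 (0.857%) with a lower difference in the medulla, and 267 of them were also called in the medulla. This count rested on GFP-negative library 2 of the medulla: without it, 17 genes had a higher and 39 a lower difference, with age as a term 37 and 56, and on total counts without TMM scaling 270 and 122. Of the 18 genes named in the text whose difference passed, 8 did so without that library, 9 with age as a term and 8 by limma-voom.

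Gfap was higher in the medulla's gate effect than in the cortex's, where the gates measured 1.64 ± 0.415 against 1.36 ± 0.272 CPM (difference 9.68, SE 1.02, edgeR adjusted p = 0.00776). Gpc6, a glypican, did likewise, with 16.9, 24.7 and 16.8 against 0 and 0 CPM in the medulla and 5.36 ± 1.74 against 2.47 ± 0.564 CPM in the cortex (edgeR adjusted p of the difference = 0.00688). So did Fxyd7, a regulator of the sodium pump, at 16.4, 34.4 and 19.2 against 0 and 0 CPM and 2.02 ± 0.679 against 0.176 ± 0.0160 CPM (edgeR adjusted p of the difference = 0.0137). Serpine2, a protease inhibitor of glia, differed as well, with 617, 1637 and 680.1 against 4.13 and 6.01 CPM in the medulla and 41.3 ± 7.23 against 6.66 ± 4.40 CPM in the cortex (difference 4.96, SE 0.90, edgeR adjusted p = 0.0305). Most glial genes did not pass this test: for Sox10 the cortex gates measured 12.7 ± 4.32 against 0.110 ± 0.191 CPM (edgeR adjusted p of the difference = 0.196) and for S100b 19.1 ± 4.08 against 0.0122 ± 0.0212 CPM (difference -2.36, SE 1.16, edgeR adjusted p = 0.343).

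Of the 13 zona glomerulosa and X-zone genes, 3 had a gate effect that differed between medulla and cortex. Cyp11b2 measured 77.0 ± 22.4 against 1183 ± 219 CPM in the cortex gates (difference -4.50, SE 0.74, edgeR adjusted p = 0.0261), Agtr1b 11.9 ± 5.22 against 214 ± 60.7 CPM (difference -5.31, SE 0.96, edgeR adjusted p = 0.0302) and Nr0b1 3.45 ± 1.94 against 21.9 ± 7.67 CPM (edgeR adjusted p of the difference = 0.0356). Lum, at 11.5 ± 11.6 against 0.220 ± 0.382 CPM (edgeR adjusted p of the difference = 0.0286), had the higher mean in GFP-positive cells of the cortex, the opposite order to the medulla, with a wide spread. Scg3 was also lower in this difference, at 3.06 ± 0.300 against 0 ± 0 CPM in the cortex (edgeR adjusted p of the difference = 0.0223). So was L1cam, a neural adhesion protein, at 10.7 ± 1.77 against 0.0122 ± 0.0212 CPM (difference -6.40, SE 0.81, edgeR adjusted p = 0.0111). Both were called higher in the medulla too. Both were at or near the floor in cortical GFP-negative cells, so the size of these differences is uncertain.

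For macrophage genes the interaction was called in 0 of 26, and the cortex comparison itself had 24 lower. For glial genes it was called in 4 of 37, with 22 higher in the cortex. A gene that does not pass is not shown to act alike in both tissues.

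**Figure D5:**
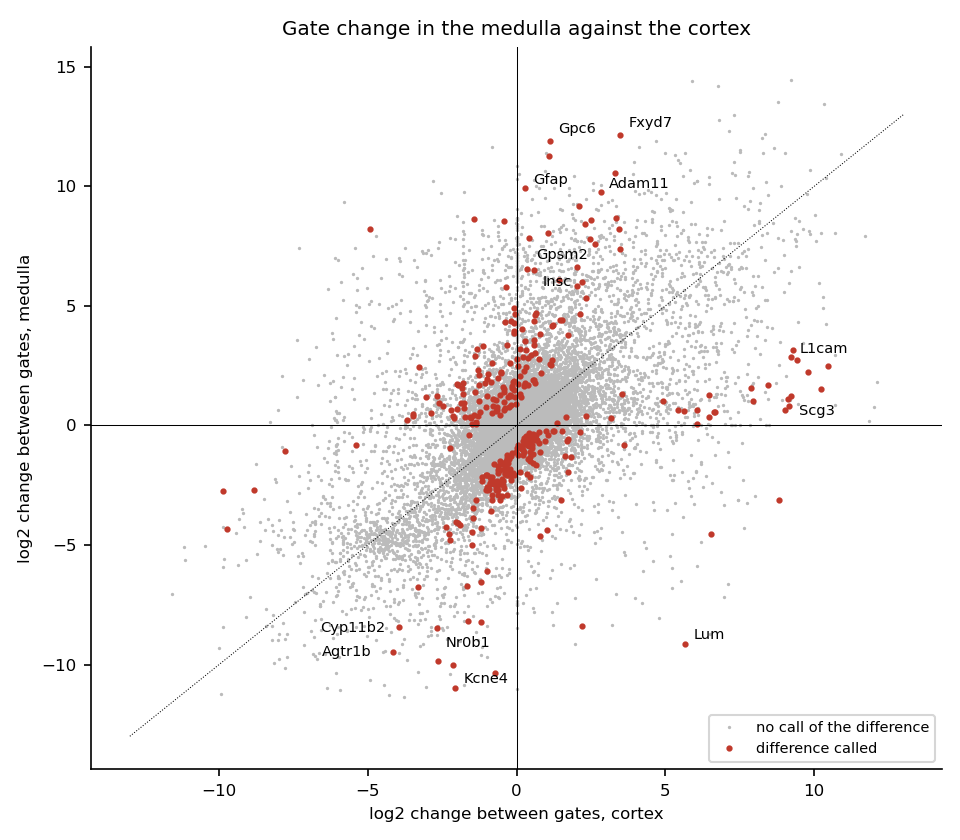
Log2 change of GFP-positive minus GFP-negative cells in the dissected medulla (vertical axis) against that in the cortex (horizontal axis), one point per gene tested, with a dotted line where both are equal. The 337 genes whose changes differed at an edgeR adjusted p under 0.05 are red, among them Gfap and Gpc6 above and Cyp11b2 and Lum below the line.

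The 3 GFP-positive libraries also differed from one another. Of the 2135 higher genes, 566 were highest in library 1, 942 in library 2 and 627 in library 3. All 29 higher genes of the Schwann cell and satellite glia list and 13 of the 15 higher basement membrane genes were highest in library 2, and all 8 higher steroidogenic genes in library 1. Library 2 came from the younger mice and library 1 from the older, but library 3, also from the younger, was nearer to library 1 in its glial sum without Apoe (5633, 11544 and 5509 CPM in GFP-positive and 764 and 776 CPM in GFP-negative libraries). With 1 GFP-positive library from the older mice, age and library cannot be told apart.

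In the authors' deposited table of the same contrast, 1557 of the genes tested here were at an adjusted p under 0.05, 665 higher and 892 lower in GFP-positive cells. Of these 1553 were called here in the same direction and 4 were not called. The smallest absolute log2 fold change among the 1557 was 1.44. Calls here needed no minimum change, so the numbers of calls are not directly comparable. Both come from the same libraries, so the overlap is no independent support.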

How the data were processed

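RNA of sorted mouse adrenal cells was amplified from the poly(A) tail, cut by transposase and sequenced without strand marks. Per the submitters' processing notes, the authors used bcl2fastq 2.19.1, GSNAP, featureCounts 1.6.0, DESeq and DESeq2 1.18.1 on mm10, and the files used here hold their deposited raw counts per gene. The authors' deposited comparison table gave symbols, log2 fold changes and adjusted p-values. The 92 spike-in rows were left out. The counts of 49671 genes were refitted with edgeR 4.0.16 in R 4.3.3 (quasi-likelihood F test, TMM scaling, filterByExpr, all 11 libraries in 1 fit, Benjamini-Hochberg adjustment over 20893 genes, threshold 0.05). The SE is the change divided by the square root of F. Ratios of 1 to 3 counts have 95% exact intervals, and these and the floor of 3 counts cover counting error only. No pair of libraries agreed within sampling noise.

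The members and gene lists were chosen with earlier results of these data known. Named genes are Nes, the 15 largest rises and falls with a mean of at least 10 CPM, the leading members and the largest called changes of each list, and the 6 largest differences from the cortex in each direction. Other members named were chosen after their values were seen. Some genes that the rule names are not reported here. Reads of a gene and its antisense partner, or of near-identical paralogs, cannot be told apart. Alternatives were RLE, total counts, DESeq2 1.42.0, limma-voom (limma 3.58.1), no filter, a stricter filter (at least 5 CPM in 2 libraries), age as a term, a replicate block, the medulla alone, older mice alone in the medulla, and leaving out each of the 5 libraries. Scripts were tested on simulated data.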

Additional observations from a re-analysis of the deposited data

Results flagged for a closer look

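The change between gates differed between medulla and cortex for 337 genes by the interaction term of edgeR (1.61% of 20893 genes tested). Among the genes named in the text it differed for 18, and each value below is the log2 change in the medulla minus that in the cortex. Where a group has no count the fitted difference depends on the prior count and is not a bound.

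Higher differences were those of Gpc6 (10.76, no count in the medullary GFP-negative libraries), Gfap (9.68), Fxyd7 (8.66, no count there either), Col20a1 (5.33), Serpine2 (4.96), Sox6 (3.99), Aldoc (3.05) and Ndrg1 (2.76).

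Lower differences were those of Lum (-14.78), Kcne4 (-8.90, no count in the medullary GFP-positive libraries), Scg3 (-7.98, no count in the cortical GFP-negative libraries), L1cam (-6.40), the pericyte gene Rgs5 (-5.99), Nr0b1 (-5.83), Agtr1b (-5.31), Cyp11b2 (-4.50), Jag1 (-3.70) and Irf7 (-1.91). Rgs5 was not called in the medulla itself, at 75.1, 222 and 107 against 138 and 118 CPM, and measured 52.2 ± 21.3 against 0.769 ± 0.953 CPM in the cortex gates. Scg3 and L1cam were higher in GFP-positive cells of both tissues, and their fitted rise was larger in the cortex. In the cortical GFP-negative libraries L1cam was near the floor, so the size of its difference is uncertain too.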

How the results depend on the processing

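Calls of the medullary comparison ranged from 2956 to 3922 in all, 1243 to 1825 higher and 1657 to 2097 lower, when single libraries were left out, and fell to 2334 (1031 higher, 1303 lower) among libraries of older mice. Other settings stayed within 1.5 times of 4461. The comparison with the cortex was far less stable, at 56 to 489 genes (17 to 302 higher, 39 to 187 lower) with single libraries left out, 1559 by DESeq2 (783 and 776), 657 with the stricter filter (421 lower), 93 with age as a term (37 and 56) and 270 higher on total counts. The cause was not tested.

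With the replicate block 3985 genes were called in the medulla and 176 in the comparison with the cortex (83 higher, 93 lower). Deviations of same-numbered medullary libraries from the means of their gates correlated at 0.0278 for number 1 and -0.0140 for number 2, where the ages differ. With 1 pair of GFP-negative libraries, their deviations from the mean mirror each other. The check therefore cannot decide whether same-numbered libraries share a pool.

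Of 2157 values of 145 named genes under the alternatives, 1977 kept direction and side of the threshold, 135 lost the call, 23 gained it and 22 reversed. The reversed changes were those of genes not called: Chga (1.09 with age as a term, 0.37 with the block, 0.29 among older mice, -0.36 to 0.20 with single libraries left out), Chgb (-0.12 to 0.54 with single libraries left out) and Th (-0.02 with the stricter filter, -0.03 in the medulla alone, -0.49 to 0.78 with single libraries left out). Rgs5 was at -0.03 by voom, -0.12 with age, -0.19 with the block, -0.77 among older mice and -0.49 to 0.36 with single libraries left out. Single reversals were Cdh5 without GFP-negative library 2 (-1.56 to 0.19 over single libraries left out), Hes1 without GFP-negative library 1 (-0.05 to 1.83), Ret at -0.02 with age and Pnmt at -0.04 among older mice. The median change of all genes was 0.15 on total counts, 0.18 without GFP-negative library 1 and 0.09 as reported. Depth limits detection to about 0.104 to 0.157 CPM in a medullary library.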
